A study of Homo sapiens with 12 samples.

Results

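The myeloid C-type lectins described here are 10 receptor and ligand genes, found in the count table by matching its Ensembl identifiers to the symbols CLEC7A, CLEC4A, CLEC4D, CLEC4E, CLEC5A, CLEC10A, CLEC12A, CLEC2B, CLEC2D and CD209. All 10 were present among the 58051 genes of the table. On chromosome 12 lie 7 of them, and the other 3 lie on chromosomes 7, 17 and 19. RNA was sequenced in 12 libraries of THP-1 cells, a line derived from human monocytic leukaemia that takes on macrophage features when given the phorbol ester PMA. The groups were SDC3-knockout cells given PMA and IFN-γ, SDC3-knockout cells given PMA alone, wild-type cells given PMA and IFN-γ, and wild-type cells given PMA alone, with 3 libraries in each. PMA was given to every group at 20 ng/ml for 24 h. The knockout was made with CRISPR/Cas9, per the series' design text, and SDC3 encodes syndecan-3, a cell-surface heparan sulphate proteoglycan. The sources used here state neither how many edited clones were used nor the dose or duration of IFN-γ.

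C-type lectin receptors carry a domain that in many members binds sugars in a calcium-dependent way, and myeloid cells use them to sense fungi, mycobacteria and damaged cells. Some signal through activating motifs of their own or through the adaptors FcRγ and DAP12, which recruit the kinase SYK and the adaptor CARD9; others carry inhibitory motifs that recruit phosphatases. The short arm of human chromosome 12 holds a dense cluster of such genes, the natural killer gene complex and its myeloid part. IFN-γ is the main cytokine that turns macrophages towards a pro-inflammatory state.

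Among the members, CLEC7A (Dectin-1) binds fungal β-glucans and has its own activating motif. CLEC4E (Mincle) binds mycobacterial glycolipids, pairs with FcRγ, and forms complexes with its neighbour CLEC4D (MCL). CLEC5A signals through DAP12. CLEC4A (DCIR) and CLEC12A (MICL) have inhibitory motifs. CLEC10A (MGL) binds terminal N-acetylgalactosamine, and CD209 (DC-SIGN) binds mannose and fucose. CLEC2B (AICL) and CLEC2D (LLT1) are ligands of the natural killer cell receptors NKp80 and CD161.

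The libraries held 23616738 to 29426415 assigned counts. Levels are CPM, the counts of a gene scaled to library size with TMM factors, and a difference is called where edgeR's quasi-likelihood test gave an adjusted p under 0.05 over 17119 tested genes. Of the 10 lectins, 9 passed the filter on low counts, and CLEC4D, with 0 to 20 counts per library, did not. SDC3 itself, the targeted gene, was at 237, 237 and 244 CPM in knockout libraries with IFN-γ and at 578, 590.3 and 572 CPM in wild-type libraries with IFN-γ. It was at 49.9, 48.2 and 43.9 CPM in knockout libraries with PMA alone and at 196, 252 and 242 CPM in wild-type libraries with PMA alone, so SDC3 reads were lower but not absent in the knockout. Of 9 monocyte and macrophage markers, 7 reached 1 CPM in each group, and their summed level ranged over 3988 to 4193, 3441 to 3577, 4250.1 to 4442 and 3693 to 3798 CPM in knockout with IFN-γ, knockout with PMA alone, wild type with IFN-γ and wild type with PMA alone. CD68 (group means of 0.13 to 0.54 CPM) and MARCO did not reach 1 CPM in any group. Other genes share 85.8% of the exon bases of CD68, and reads there cannot be assigned by strand. The T-cell marker CD2, the B-cell marker MS4A1, the dendritic cell markers FCER1A and CLEC4C, the granulocyte marker CEACAM8 and the globin gene HBB had no count in any library. Summed over 8 dendritic cell markers, of which 2 or 3 reached 1 CPM, the level was 52.8 to 54.5, 76.3 to 80.7, 34.0 to 39.4 and 42.6 to 51.9 CPM in the same order of groups. For 5 granulocyte markers, with 2 or 3 at 1 CPM, it was 93.6 to 101, 193 to 213, 50.3 to 56.1 and 126 to 133 CPM. For 5 B-cell markers, with 2 to 4 at 1 CPM, it was 8.43 to 10.4, 4.87 to 5.58, 25.1 to 28.6 and 13.1 to 17.8 CPM. For 3 endothelial markers, with 2 at 1 CPM, it was 353 to 370.4, 815 to 833, 327 to 338 and 572 to 624 CPM. The 8 T-cell or NK-cell markers, with 1 or 2 at 1 CPM, summed to 3.26 to 3.40, 4.61 to 4.94, 2.04 to 3.27 and 3.15 to 4.08 CPM. The 5 epithelial or fibroblast markers, with 2 at 1 CPM, summed to 16.7 to 20.2, 12.7 to 15.8, 8.26 to 10.3 and 11.1 to 13.8 CPM. Of 4 erythroid or megakaryocyte markers 0 reached 1 CPM, with sums from 0.24 to 1.22 CPM. Most of these sums move with the groups, as the lectins do, and their part in the results was not tested. In such bulk libraries a change in how many cells express a gene and a change in RNA per cell cannot be told apart. The labels number the libraries of a group but do not call them separate cultures, so the p-values cover the spread among these libraries, which may be technical.

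Of the upstream sequences of the members, 5 were in the promoter table used here (RefSeq, GRCh38.p14), and 3 are shown. In the results that follow, CD209 and CLEC5A were higher with IFN-γ and lower in the knockout with IFN-γ, and CLEC12A was lower with IFN-γ. Each sequence shown is the 250 bases before the annotated start, written 5′ to 3′ along the gene's strand. The windows are chr19:7747535-7747784 (minus strand) for CD209, chr7:141946975-141947224 (minus strand) for CLEC5A and chr12:9971159-9971408 (plus strand) for CLEC12A. These RefSeq starts are not those of the gene spans in the count table: the CD209 and CLEC5A windows overlap the outer end of the span, and the CLEC12A window lies well inside it (9951316-9995694). Capitals mark motif matches on either strand.
CD209: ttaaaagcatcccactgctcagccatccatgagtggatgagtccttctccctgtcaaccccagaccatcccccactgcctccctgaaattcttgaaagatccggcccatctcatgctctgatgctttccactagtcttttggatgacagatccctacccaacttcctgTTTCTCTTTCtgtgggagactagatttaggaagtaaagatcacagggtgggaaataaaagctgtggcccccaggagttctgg
CLEC5A: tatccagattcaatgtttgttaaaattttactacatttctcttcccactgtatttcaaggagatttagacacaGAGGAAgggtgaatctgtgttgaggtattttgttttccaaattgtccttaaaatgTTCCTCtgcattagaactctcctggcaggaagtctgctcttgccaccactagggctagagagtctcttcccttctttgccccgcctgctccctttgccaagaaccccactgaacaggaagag
CLEC12A: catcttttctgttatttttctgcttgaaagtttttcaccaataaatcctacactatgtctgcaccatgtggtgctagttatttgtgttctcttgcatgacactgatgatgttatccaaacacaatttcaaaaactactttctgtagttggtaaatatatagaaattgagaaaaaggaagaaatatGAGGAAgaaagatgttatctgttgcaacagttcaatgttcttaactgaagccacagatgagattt
The motifs described are the interferon-stimulated response element core (TTTC, any 2 bases, TTTC), the NF-kB motif (GGG, any 2 bases, TTTCC) and the core GAGGAA of the myeloid factor PU.1. These letters occur in 3.02%, 1.73% and 23.6% of 35116 promoters of the same length. CD209 had 1 match to the interferon-stimulated core (TTTCTCTTTC, first base 82 before the start), CLEC5A had 2 matches to the PU.1 core, and CLEC12A, CLEC2D and CLEC4E had 1 PU.1 match each. No match to the NF-kB letters lies in these 5 windows. A match is a match of letters, and binding was not measured.

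CLEC7A was the most abundant lectin of the set in all 4 groups, and CD209 came next. Per kilobase of exon, the scale on which genes can be compared, CLEC7A averaged 46.6 ± 2.10 CPM in knockout with IFN-γ, 17.1 ± 0.51 in knockout with PMA alone, 40.2 ± 1.33 in wild type with IFN-γ and 11.7 ± 0.65 in wild type with PMA alone (SD, n = 3). CD209 averaged 17.3 ± 0.99, 5.53 ± 0.03, 27.1 ± 2.03 and 6.02 ± 0.47 CPM per kilobase in the same groups. With IFN-γ, CLEC2B and CLEC10A followed, at 12.4 and 8.05 CPM per kilobase in knockout and at 14.04 and 12.9 in wild type, where their library ranges overlapped. With PMA alone CLEC12A came next after CD209, at 4.65 CPM per kilobase in knockout and 3.66 in wild type, and in wild type its range overlapped that of CLEC2B. Group means of CLEC5A, CLEC4E and CLEC4D lay between 0.06 and 1.26 CPM per kilobase. The 10 genes together summed to 88.2 ± 1.35 CPM per kilobase in knockout with IFN-γ and 33.6 ± 1.27 in knockout with PMA alone, and to 100.5 ± 0.74 in wild type with IFN-γ and 29.4 ± 1.52 in wild type with PMA alone.

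The make-up of that sum differed between the groups. CLEC7A supplied 52.8% ± 1.69 of it in knockout and 40.0% ± 1.53 in wild type with IFN-γ, and 50.8% ± 1.35 in knockout and 39.7% ± 0.23 in wild type with PMA alone (SD, n = 3). CD209 supplied 19.6%, 16.5%, 26.9% and 20.5% in knockout with IFN-γ, knockout with PMA alone, wild type with IFN-γ and wild type with PMA alone. CLEC12A made up 0.76% of the sum in knockout with IFN-γ against 13.8% in knockout with PMA alone, and 0.86% in wild type with IFN-γ against 12.4% in wild type with PMA alone. CLEC10A did the opposite, with 9.13% against 0.44% in knockout and 12.8% against 1.12% in wild type. The set with IFN-γ was thus made up mainly of CLEC7A, CD209, CLEC2B and CLEC10A, and the set with PMA alone mainly of CLEC7A, CD209, CLEC12A, CLEC2B and CLEC4A. These shares are descriptions, since the parts of a sum move together.

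**Figure D1:**
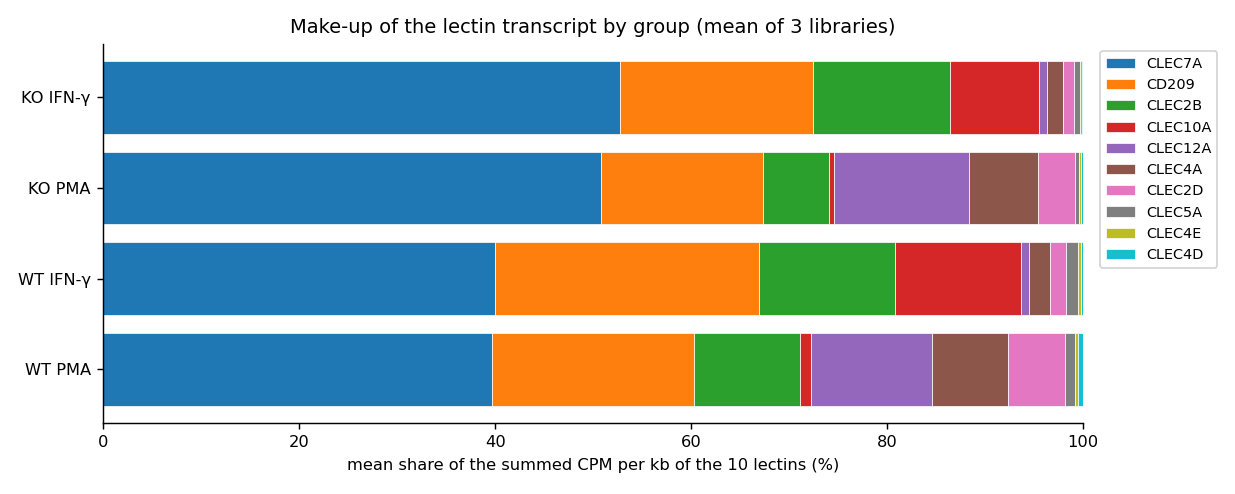
Share of the summed level of the 10 lectins (percent of CPM per kilobase, mean of 3 libraries) held by each gene in the 4 groups. CLEC7A fills 52.8% and 50.8% of the knockout bars and 40.0% and 39.7% of the wild-type bars, while CLEC12A shrinks to under 1% with IFN-γ in both genotypes.

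With IFN-γ, compared with PMA alone, 6 lectins rose and 3 fell in knockout cells, and 6 rose and 1 fell in wild-type cells. All 9 tested lectins were thus called in knockout, where 61.1% of all tested genes were called (29.2% higher and 31.8% lower), and 7 of 9 in wild type, where 56.5% were called (28.6% higher and 27.9% lower). Among them CLEC10A rose most and CLEC12A fell most, and the 6 that rose were CLEC7A, CLEC4E, CLEC2B, CLEC5A, CLEC10A and CD209 in both genotypes. Median log2 fold changes of the 9 were 1.45 in knockout and 1.78 in wild type, beside −0.05 and −0.02 over all tested genes. The responses of the 2 genotypes share no library. With library totals alone, the median of all tested genes shifted by −0.30 in knockout and −0.25 in wild type, and the share of calls that were higher was 23.4% and 25.1%, against 47.9% and 50.7% with TMM scaling. Upper-quartile scaling gave 36.4% and 37.5%. No lectin changed direction under these scalings.

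CLEC10A, the N-acetylgalactosamine receptor, was at 21.3, 19.3 and 19.04 CPM in knockout libraries with IFN-γ and at 0.22, 0.38 and 0.52 CPM in knockout libraries with PMA alone. In wild-type libraries it was at 31.9, 34.5 and 28.9 CPM with IFN-γ and at 0.76, 0.74 and 0.94 CPM with PMA alone. The libraries with PMA alone held 6 to 28 counts of the gene, near the low end of what these depths measure, and no library of one treatment came near the other. The log2 fold change was 5.70 ± 0.17 (SE) in knockout (edgeR adjusted p = 2.2e-24) and 5.28 ± 0.14 in wild type (edgeR adjusted p = 2.1e-25), or 52.1-fold and 38.8-fold.

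CD209, the mannose and fucose receptor, was at 81.3, 75.1 and 72.8 CPM in knockout libraries with IFN-γ and at 24.5, 24.2 and 24.5 CPM in knockout libraries with PMA alone. Wild-type libraries had 129.7, 113 and 116 CPM with IFN-γ and 24.7, 26.1 and 28.8 CPM with PMA alone. All libraries with IFN-γ lay far above those without it, and the highest were those of wild type. CD209 rose by a log2 fold change of 1.65 ± 0.06 in knockout (edgeR adjusted p = 5.9e-21) and of 2.17 ± 0.06 in wild type (edgeR adjusted p = 2.3e-24). Reads that match CD209 and its close paralogue CLEC4M equally well could have been counted for either gene.

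CLEC7A, the β-glucan receptor, had 185, 199 and 201 CPM in knockout libraries with IFN-γ and 69.9, 70.9 and 74.0 CPM in knockout libraries with PMA alone. In wild type it had 162, 169.8 and 173 CPM with IFN-γ and 51.9, 46.6 and 48.2 CPM with PMA alone. The 4 groups did not overlap, with knockout above wild type under each treatment. Its log2 fold change with IFN-γ was 1.45 ± 0.05 in knockout (edgeR adjusted p = 9.8e-23) and 1.78 ± 0.05 in wild type (edgeR adjusted p = 9.5e-25).

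CLEC2B, the NKp80 ligand, was at 31.4, 32.5 and 34.1 CPM in knockout libraries with IFN-γ and at 4.79, 5.77 and 7.62 CPM in knockout libraries with PMA alone. Wild-type libraries had 37.2, 35.6 and 38.3 CPM with IFN-γ and 9.07, 8.14 and 7.98 CPM with PMA alone. It was 5.36-fold higher with IFN-γ in knockout (log2 fold change 2.42 ± 0.10, edgeR adjusted p = 7.0e-20) and 4.42-fold higher in wild type (2.14 ± 0.10, edgeR adjusted p = 7.0e-19). Exon bases shared with an overlapping gene made up 18.2% of CLEC2B, and reads there cannot be assigned by strand. The same limit holds for CLEC2D (12.1%), CLEC5A (12.0%), CLEC4A (8.90%) and CLEC12A (4.55%).

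CLEC5A, the DAP12-coupled receptor on chromosome 7, was at 1.86, 1.51 and 2.87 CPM in knockout libraries with IFN-γ and at 0.58, 0.38 and 0.61 CPM in knockout libraries with PMA alone. Wild-type libraries had 5.17, 5.43 and 4.95 CPM with IFN-γ and 1.45, 1.36 and 0.81 CPM with PMA alone. Levels were low everywhere and highest in wild type with IFN-γ. Its response was 1.99 ± 0.29 on the log2 scale in knockout (edgeR adjusted p = 4.8e-07) and 2.11 ± 0.23 in wild type (edgeR adjusted p = 2.5e-09).

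CLEC4E, the glycolipid receptor, was barely detected, at 0.49, 0.57 and 0.54 CPM in knockout libraries with IFN-γ and at 0.36, 0.19 and 0.06 CPM in knockout libraries with PMA alone. Wild type had 0.96, 0.76 and 0.70 CPM with IFN-γ and 0.23, 0.06 and 0.47 CPM with PMA alone, from 2 to 24 counts per library over all groups. It rose in both genotypes by the test, by 1.38 ± 0.57 in knockout (edgeR adjusted p = 0.035) and 1.67 ± 0.52 in wild type (edgeR adjusted p = 0.0068) on the log2 scale. The knockout call was lost under upper-quartile scaling, under library totals alone, and without 5 of the libraries taken singly (each knockout IFN-γ library, and knockout PMA replicates 2 and 3), with a value of 0.95 and an adjusted p of 0.18 without knockout PMA replicate 3, and adjusted p ranged over 0.0135 to 0.181 across 21 alternatives. The wild-type call was lost without wild-type PMA replicate 2 (1.18, adjusted p 0.067), with a range of 0.0015 to 0.067 over its 21 alternatives.

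CLEC12A, the inhibitory receptor, was the member that fell most with IFN-γ. It was at 1.62, 2.77 and 2.14 CPM in knockout libraries with IFN-γ and at 13.6, 17.1 and 14.7 CPM in knockout libraries with PMA alone. Wild type had 2.97, 2.204 and 3.22 CPM with IFN-γ and 14.9, 10.8 and 10.00 CPM with PMA alone. Its log2 fold change was −2.80 ± 0.17 in knockout (edgeR adjusted p = 8.1e-16), which left it at 14.4% of the level with PMA alone. In wild type the change was −2.09 ± 0.16 (edgeR adjusted p = 9.7e-13), which left 23.5%.

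CLEC4A and CLEC2D moved less, and with TMM scaling their falls were called in knockout but not in wild type. CLEC4A, the other inhibitory receptor, was at 2.03, 1.38 and 2.26 CPM in knockout libraries with IFN-γ and at 3.02, 3.38 and 2.71 CPM in knockout libraries with PMA alone (log2 fold change −0.68 ± 0.20, edgeR adjusted p = 0.0039). CLEC2D, the CD161 ligand, was at 6.61, 6.03 and 7.49 CPM in knockout libraries with IFN-γ and at 7.81, 10.3 and 8.20 CPM in knockout libraries with PMA alone (−0.39 ± 0.12, edgeR adjusted p = 0.0063). In wild type, CLEC4A had 2.57, 2.47 and 3.04 CPM with IFN-γ and 2.90, 2.74 and 3.05 CPM with PMA alone, and CLEC2D had 10.4, 10.98 and 12.6 CPM with IFN-γ and 12.8, 11.2 and 11.7 CPM with PMA alone. The wild-type libraries of the 2 treatments overlapped for both genes, and the fitted differences plus or minus 2 SE ran over −0.49 to 0.28 for CLEC4A and −0.29 to 0.16 for CLEC2D. With library totals alone, a scaling that shifted all genes downward, CLEC2D was called lower in wild type too (−0.32, adjusted p 0.014), in a range of 0.014 to 0.96 over 22 alternatives. Without knockout IFN-γ replicate 2, CLEC4A (−0.48, adjusted p 0.051) and CLEC2D (−0.29, adjusted p 0.068) lost their calls in knockout, as CLEC2D also did without knockout PMA replicate 2 (−0.25, adjusted p 0.096). Adjusted p ranged up to 0.051 for CLEC4A and 0.096 for CLEC2D over 21 and 22 alternatives, and their falls in knockout were not shown to differ from the wild-type values, since the differences of the responses were not called (adjusted p = 0.18 and 0.21).

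CLEC4D, which pairs with CLEC4E, stayed at 0.24, 0.16 and 0.15 CPM in knockout libraries with IFN-γ and 0.14, 0 and 0.19 CPM in knockout libraries with PMA alone. Wild type had 0.16, 0.76 and 0.26 CPM with IFN-γ and 0.30, 0.31 and 0.27 CPM with PMA alone. A floor of 3 counts corresponds to 0.102 to 0.127 CPM in these libraries, and most libraries lay only a few counts above it. Fitted without the filter, none of its 5 comparisons was called (lowest adjusted p 0.18, for the genotypes with PMA alone, at −1.37 ± 0.73, where the libraries did not overlap).

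**Figure D2:**
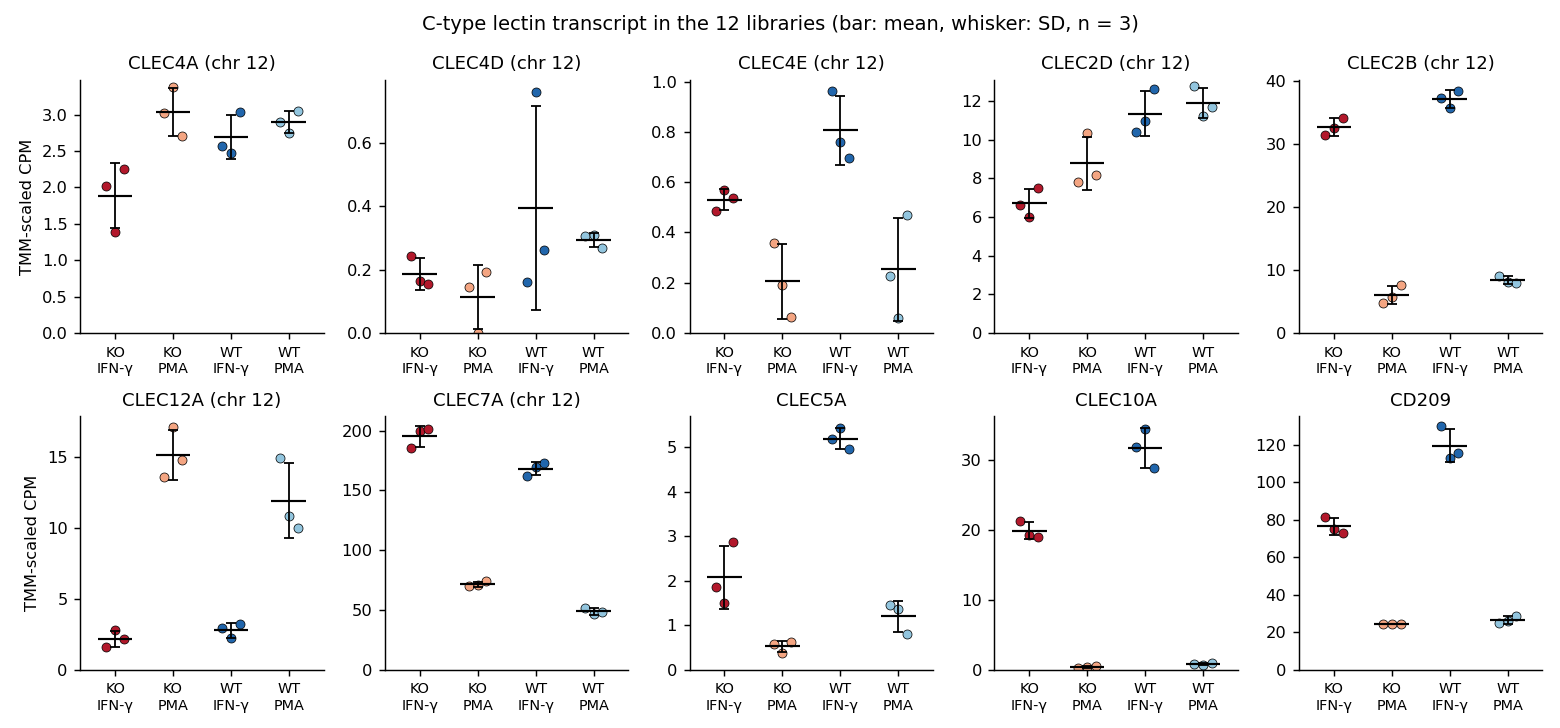
TMM-scaled CPM of each of the 10 lectins in every library (points), on a linear axis of its own for each gene, with a bar at the group mean and a whisker for the SD (n = 3). CLEC10A lies at 19.04 to 34.5 CPM with IFN-γ and at 0.22 to 0.94 CPM with PMA alone, CLEC12A separates in the other direction, and CLEC7A is above wild type in every knockout library of the same treatment.

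With IFN-γ, the comparison that the design text names, the knockout had lower levels of 5 lectins and a higher level of 1. CLEC5A, CLEC2D, CLEC10A, CD209 and CLEC4A fell and CLEC7A rose, so 6 of 9 tested lectins were called, beside 47.2% of all tested genes (22.9% higher and 24.3% lower). Their median log2 fold change was −0.60, beside −0.01 over all tested genes. Of all calls here 48.6% were higher, or 35.6% with library totals alone. The fall of CLEC5A was the largest, to 2.08 ± 0.71 CPM in knockout against 5.19 ± 0.24 CPM in wild type (SD, n = 3), a log2 fold change of −1.31 ± 0.22 (edgeR adjusted p = 9.0e-06). CLEC2D changed by −0.75 ± 0.12 (edgeR adjusted p = 3.7e-06), CLEC10A by −0.68 ± 0.09 (edgeR adjusted p = 1.9e-07) and CD209 by −0.65 ± 0.06 (edgeR adjusted p = 4.8e-11). These 4 genes stood at 40.3%, 59.3%, 62.6% and 63.9% of the wild-type level, with no overlap between knockout and wild-type libraries.

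CLEC7A was 1.16-fold higher in the knockout with IFN-γ (log2 fold change 0.21 ± 0.05, edgeR adjusted p = 2.5e-04), and its libraries did not overlap either. CLEC4A fell by 0.50 on the log2 scale with an SE of 0.21 and an edgeR adjusted p of 0.046, just inside the threshold. That call was lost under RLE scaling, without a filter, with DESeq2, with limma-voom, in a fit of the compared libraries alone, and without knockout IFN-γ replicate 1 or 2 or wild-type IFN-γ replicate 1 or 3. Without knockout IFN-γ replicate 2 the value was −0.30 (adjusted p 0.28), and without wild-type IFN-γ replicate 3 it was −0.41 (adjusted p 0.15), in a range of 0.021 to 0.28 over 21 alternatives. Not called were CLEC12A (−0.35 ± 0.21), CLEC4E (−0.60 ± 0.48) and CLEC2B (−0.18 ± 0.09, edgeR adjusted p = 0.086), whose knockout libraries at 31.4 to 34.1 CPM all lay below wild-type libraries at 35.6 to 38.3 CPM. CLEC2B passed the threshold with library totals alone, with limma-voom, in a fit of the compared libraries alone, and without knockout PMA replicate 3 (−0.18, adjusted p 0.043), in a range of 0.015 to 0.24 over 22 alternatives.

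With PMA alone, CLEC7A and CLEC12A were higher in the knockout and CLEC2B, CLEC2D, CLEC5A and CLEC10A were lower, so 6 of 9 were called, beside 50.1% of all tested genes (25.4% higher and 24.8% lower). CLEC7A was 1.47-fold higher (log2 fold change 0.55 ± 0.05, edgeR adjusted p = 7.5e-11), with 71.6 ± 2.14 CPM in knockout and 48.9 ± 2.74 CPM in wild type (SD, n = 3). CLEC5A changed by −1.19 ± 0.31 (edgeR adjusted p = 0.0017) and CLEC10A by −1.10 ± 0.29 (edgeR adjusted p = 0.0021), with group means of 0.37 to 1.203 CPM. CLEC2B changed by −0.46 ± 0.12 (edgeR adjusted p = 0.0012) and CLEC2D by −0.43 ± 0.11 (edgeR adjusted p = 0.0017). None of these 5 genes had overlapping libraries between the genotypes.

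CLEC12A with PMA alone was called higher in the knockout by 0.35 ± 0.13 on the log2 scale (edgeR adjusted p = 0.025), although wild-type replicate 1, at 14.9 CPM, lay within the knockout range. The call was lost with DESeq2 (adjusted p 0.057), without knockout PMA replicate 2 (0.26, adjusted p 0.17), and without wild-type PMA replicate 2 (0.29, adjusted p 0.11) or 3 (0.24, adjusted p 0.18), in a range of 0.0010 to 0.18 over 22 alternatives. CD209 was not called, at 24.5, 24.2 and 24.5 CPM in knockout against 24.7, 26.1 and 28.8 CPM in wild type (−0.12 ± 0.07, edgeR adjusted p = 0.13), although no wild-type library was as low as any knockout library. It passed the threshold without wild-type PMA replicate 1 (−0.17, adjusted p 0.047), in a range of 0.047 to 0.53 over 22 alternatives. For CLEC4A and CLEC4E the fitted differences plus or minus 2 SE ran over −0.30 to 0.44 and −1.55 to 0.93. The 2 genotype comparisons share no library, and CLEC7A, CLEC2D, CLEC5A and CLEC10A were called in the same direction in both.

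**Figure D3:**
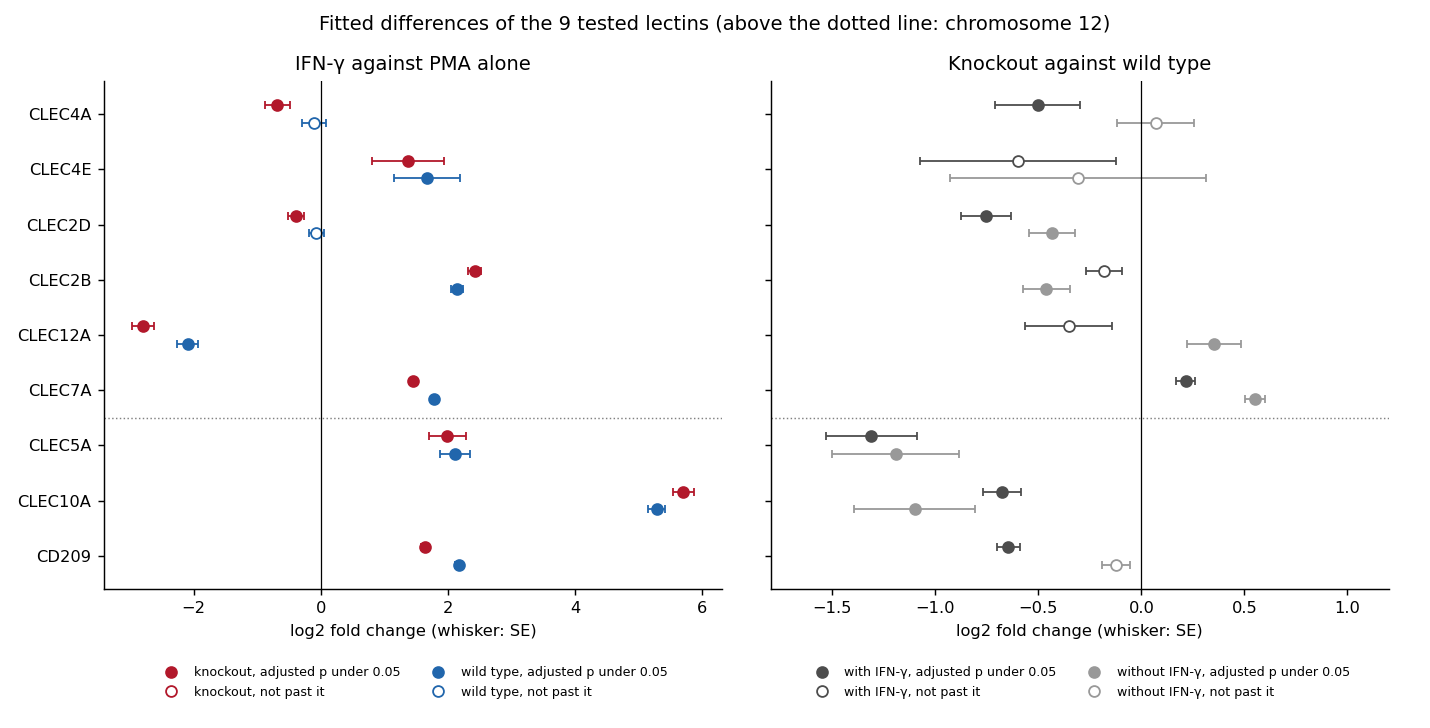
Fitted log2 fold changes of the 9 tested lectins with their SE, for IFN-γ against PMA alone in knockout and wild type (left) and for knockout against wild type with and without IFN-γ (right). Filled points passed an adjusted p of 0.05; CLEC7A lies right of 0 in all 4 comparisons, and CLEC5A and CLEC10A lie left of 0 in both genotype comparisons.

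The IFN-γ response itself differed between the genotypes for CLEC7A and CD209, tested as the knockout response minus the wild-type response. CD209 rose 3.13-fold in knockout and 4.49-fold in wild type, a difference of −0.52 ± 0.09 on the log2 scale (edgeR adjusted p = 5.4e-05). CLEC7A rose 2.73-fold in knockout and 3.44-fold in wild type, a difference of −0.34 ± 0.07 (edgeR adjusted p = 5.3e-04). The 2 of 9 stand beside 15.5% of all tested genes (7.61% higher and 7.86% lower). CLEC7A was higher in the knockout under both treatments, and the genotypes lay closer together with IFN-γ (0.21 against 0.55 with PMA alone, log2 fold changes). CD209 was lower in the knockout, and the genotypes lay further apart with IFN-γ (−0.65 against −0.12). Of the calls in this comparison over all tested genes, 49.2% were higher, or 35.0% with library totals alone.

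CLEC12A was just outside the threshold (−0.71 ± 0.25, edgeR adjusted p = 0.051). It passed with library totals alone, with no filter, with a 5 CPM filter, with DESeq2, and without knockout IFN-γ replicate 2 (−0.88, adjusted p 0.025), knockout PMA replicate 1 (−0.78, adjusted p 0.040), wild-type IFN-γ replicate 2 (−0.85, adjusted p 0.026) or wild-type PMA replicate 1 (−0.89, adjusted p 0.0057), in a range of 0.0057 to 0.19 over 21 alternatives. CLEC2B, at 0.28 ± 0.14 (edgeR adjusted p = 0.21), passed without knockout PMA replicate 3 (0.48, adjusted p 0.014), in a range of 0.014 to 0.60 over 21 alternatives. For CLEC10A the difference plus or minus 2 SE ran over −0.19 to 1.04, for CLEC5A over −0.93 to 0.70, and for CLEC4E over −1.90 to 1.31.

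Within the chromosome 12 cluster the genes did not move as one. From CLEC4A at 8123632-8138607 (plus strand, hg38) the members run through CLEC4D (8509475-8522366, plus), CLEC4E (8533305-8540963, minus), CLEC2D (9664969-9699555, plus), CLEC2B (9852984-9870136, minus) and CLEC12A (9951316-9995694, plus) to CLEC7A (10116777-10130258, minus). The gaps between neighbouring members were 370.9, 10.9, 1124, 153, 81.2 and 121 kb in that order. CLEC12A, which fell with IFN-γ, thus lies between CLEC2B and CLEC7A, which both rose in both genotypes. Of the 6 tested members of the cluster, 3 rose and 3 fell with IFN-γ in knockout, and 3 rose and 1 fell in wild type, with median log2 fold changes of 0.50 and 0.80. Over all tested genes 29.2% rose and 31.8% fell in knockout, and 28.6% rose and 27.9% fell in wild type. Without knockout IFN-γ replicate 2, CLEC4A, CLEC4E and CLEC2D all lost their calls in knockout, and 3 of the 6 members were left called.

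All 3 members outside chromosome 12 moved together: CLEC5A on chromosome 7 (141927357-141947007, minus strand), CLEC10A on chromosome 17 (7074537-7080307, minus) and CD209 on chromosome 19 (7739994-7747564, minus) rose with IFN-γ in both genotypes, with medians of 1.99 in knockout and 2.17 in wild type. They all fell in the knockout with IFN-γ (median −0.68), where the cluster had 1 higher, 2 lower and a median of −0.43. With PMA alone 2 of the 3 were lower in the knockout (median −1.10), and the cluster had 2 higher and 2 lower (median −0.12). The shares over all tested genes were 22.9% higher and 24.3% lower with IFN-γ, and 25.4% and 24.8% with PMA alone. With 6 and 3 tested genes, these are counts only, and no test was made between the sets.

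Between the outer ends of CLEC4A and CLEC7A lie 95 other genes of the table, of which 29 were tested. With IFN-γ against PMA alone 5 were higher and 11 lower in knockout (median −0.41), and 7 higher and 8 lower in wild type (median −0.0015). In the knockout with IFN-γ none of them was called higher and 10 were lower than in wild type (median −0.49), and with PMA alone 2 were higher and 9 lower (median −0.34). Over all tested genes 22.9% were higher and 24.3% lower with IFN-γ, and 25.4% and 24.8% with PMA alone. The 10 and 9 lower genes are of 29. A filter of 5 CPM in 3 libraries left 5 and 5 called lower, out of fewer than 29 tested genes. As shares, those counts cannot be set beside the 10 and 9. With limma-voom 2 were called higher with IFN-γ, and without wild-type IFN-γ replicate 1 or 3 it was 1. In the IFN-γ responses the 5 CPM filter gave 2 higher and 5 lower in knockout, and 2 higher and 3 lower in wild type, again out of fewer than 29 tested genes. Over all genes tested in the main fit, the responses gave 29.2% higher and 31.8% lower in knockout, and 28.6% and 27.9% in wild type. Lectin-like genes stood among the largest movers of the stretch. CLEC12B, next to CLEC12A, was at 0.32 CPM in knockout with IFN-γ and 2.23 CPM with PMA alone, and at 0.36 and 1.92 CPM in wild type, log2 fold changes of −2.79 ± 0.32 and −2.44 ± 0.32. CLEC6A (Dectin-2), a receptor of fungal mannans near CLEC4D, was at 0.50 against 0.07 CPM in knockout and 1.02 against 0.18 CPM in wild type, with fitted changes of 2.83 ± 0.72 and 2.46 ± 0.55 from few counts.

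**Figure D4:**
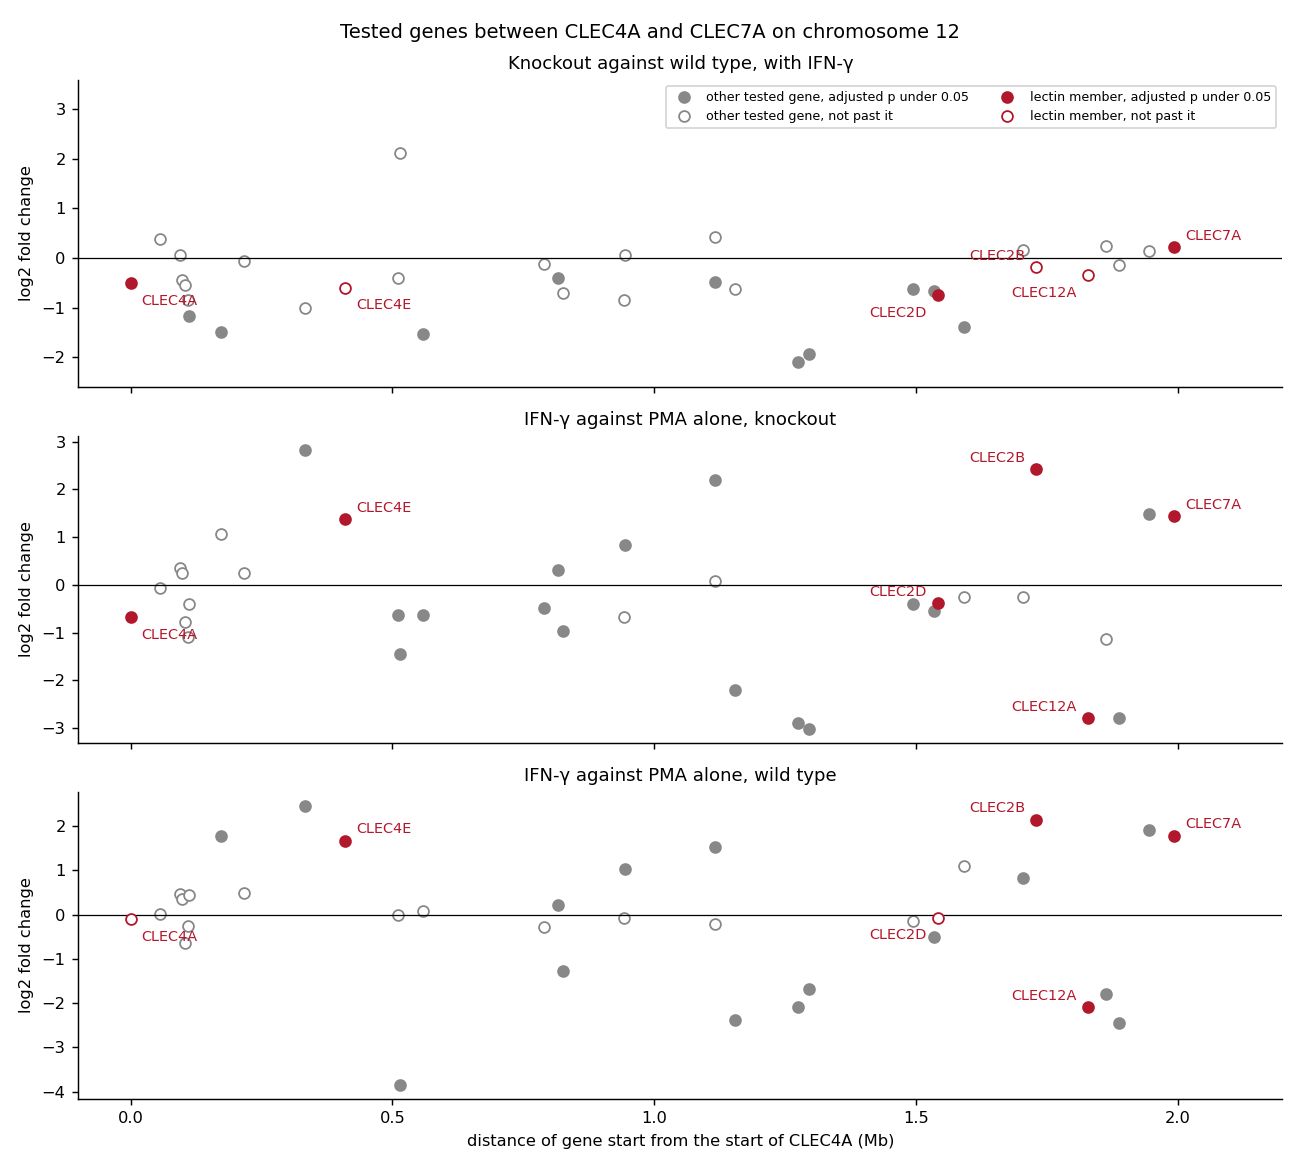
Log2 fold changes of the tested genes between CLEC4A and CLEC7A: knockout against wild type under IFN-γ (top) and IFN-γ against PMA alone in knockout (middle) and wild type (bottom), plotted by the distance of their start from the start of CLEC4A (Mb); red points are the lectin members and filled points passed an adjusted p of 0.05. In the lower panels CLEC12A lies well below 0 and its flanking members CLEC2B and CLEC7A well above it in both genotypes.

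Of 10 tested C-type lectin-like genes of the same chromosome arm other than the members (21 in the table), 2 rose and 4 fell with IFN-γ in knockout, and 3 rose and 5 fell in wild type. CLEC6A, CLEC12B, CLEC1A, CLEC1B, CLECL1P, KLRF1 and KLRG1 are also among the neighbours counted above, so these counts are not separate. Over all tested genes 29.2% rose and 31.8% fell in knockout, and 28.6% rose and 27.9% fell in wild type. OLR1, the oxidised LDL receptor, fell to 4.35 CPM with IFN-γ in knockout, against 18.1 CPM with PMA alone, and to 9.58 CPM in wild type, against 24.0 CPM. It was lower in the knockout with IFN-γ by 1.14 ± 0.12 on the log2 scale (log2 fold change −1.14), and its response differed between the genotypes (−0.74 ± 0.15, edgeR adjusted p = 5.5e-04). In the genotype comparisons 2 of the 10 were lower and none higher with IFN-γ, and 1 was higher and 2 lower with PMA alone. The 2 with IFN-γ became 1 with no filter, with a 5 CPM filter, with DESeq2, and without knockout IFN-γ replicate 1 or 2, knockout PMA replicate 1, or replicate 2 or 3 of either wild-type group. They became 3 with upper-quartile scaling, with library totals alone, with limma-voom and in a fit of the compared libraries alone.

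Among 20 tested C-type lectin genes of other chromosomes (43 in the table), 2 were higher and 11 lower in the knockout with IFN-γ, and 1 was higher and 10 lower with PMA alone. Beside these stand 22.9% higher and 24.3% lower of all tested genes with IFN-γ, and 25.4% and 24.8% with PMA alone. The macrophage mannose receptor MRC1 was at 10.5 CPM in knockout and 37.8 CPM in wild type with IFN-γ (log2 fold change −1.85 ± 0.10, edgeR adjusted p = 4.4e-16). CD93, a receptor of myeloid and endothelial cells, was at 0.03 CPM in knockout and 33.8 CPM in wild type with IFN-γ, and at 0.06 and 144 CPM with PMA alone. FCER2, the low-affinity IgE receptor, was at 10.3 CPM in knockout and 34.1 CPM in wild type with IFN-γ (−1.72 ± 0.11, edgeR adjusted p = 2.5e-14). Both calls of a higher level with IFN-γ were lost without knockout IFN-γ replicate 1 and without wild-type IFN-γ replicate 1, and 1 was lost without knockout IFN-γ replicate 3. With PMA alone 2 were higher without knockout PMA replicate 1 and without wild-type PMA replicate 2. IFN-γ against PMA alone gave 7 higher and 6 lower in each genotype (in wild type 10 lower with upper-quartile scaling and 11 with library totals alone), and LY75 (DEC-205), at 1.78 in knockout and 1.45 in wild type on the log2 scale, was among those that rose. Of all tested genes, 29.2% were higher and 31.8% lower in that response in knockout, and 28.6% and 27.9% in wild type.

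Among the signalling partners of the receptors, the adaptor genes FCER1G and TYROBP were abundant, and they differed between the genotypes in opposite directions. FCER1G, which encodes FcRγ, averaged 1160 CPM in knockout and 866 CPM in wild type with IFN-γ, a rise in the knockout of 0.42 ± 0.04 on the log2 scale (edgeR adjusted p = 9.4e-12). TYROBP, which encodes DAP12, the partner of CLEC5A, averaged 669.6 CPM in knockout and 884 CPM in wild type, a log2 fold change of −0.40 ± 0.04 (edgeR adjusted p = 1.0e-10). HCST, which encodes DAP10, stood at 3.41 CPM in knockout against 8.24 CPM in wild type (−1.27 ± 0.15). CARD9 averaged 35.0 CPM in knockout against 51.5 CPM in wild type with IFN-γ (−0.56 ± 0.07, edgeR adjusted p = 6.7e-08), and its response differed between the genotypes (−0.44 ± 0.10, edgeR adjusted p = 0.0016). SYK was lower in the knockout with IFN-γ by a log2 fold change of −0.21 and higher with PMA alone by 0.11, both called. The SRC-family kinase FGR was lower by −1.18 with IFN-γ and −1.91 with PMA alone.

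Over the whole list of 26 adaptors, kinases and phosphatases, all tested, 4 were higher and 11 lower in the knockout with IFN-γ, and 8 higher and 13 lower with PMA alone. Over all tested genes the shares were 22.9% higher and 24.3% lower with IFN-γ, and 25.4% and 24.8% with PMA alone. Further members called with IFN-γ were LYN (0.19), VAV2 (0.39), BTK (0.17), VAV3 (−0.11), MALT1 (−0.19), MAP3K7 (−0.16), PTPN6 (−0.14) and CBLB (−0.24) on the log2 scale. SRC, VAV1, PLCG2, PRKCD, BCL10, TRAF6, PTPN11, INPP5D, CBL and RUBCN were not called there, with values between −0.10 and 0.07. With IFN-γ against PMA alone 15 rose and 5 fell in knockout, and 17 rose and 3 fell in wild type. Of all tested genes 29.2% rose and 31.8% fell in knockout, and 28.6% rose and 27.9% fell in wild type. The kinase LYN rose by 1.54 in knockout and 1.42 in wild type, and RUBCN, a regulator of phagocytosis linked to LC3, by 1.27 and 1.15. SYK fell by 0.86 in knockout and by 0.53 in wild type on the log2 scale. These response counts depend on scaling: library totals alone gave 8 higher and 11 lower in knockout and 10 higher and 8 lower in wild type, and upper-quartile scaling 10 higher and 6 lower in wild type.

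Of 20 tested transcription factors and targets of lectin signalling (24 in the table), 7 were higher and 8 lower in the knockout with IFN-γ, and 5 higher and 9 lower with PMA alone. All tested genes gave 22.9% higher and 24.3% lower with IFN-γ, and 25.4% and 24.8% with PMA alone. RELB, the non-canonical NF-kB subunit, was higher by 1.27 with IFN-γ and NFATC2 lower by a log2 fold change of −1.99. The higher count with PMA alone fell to 3 without knockout PMA replicate 1, without wild-type PMA replicate 3 and with library totals alone. IFN-γ against PMA alone gave 9 higher and 2 lower in knockout and 9 higher and 6 lower in wild type. In knockout the 2 became 5 with upper-quartile scaling and 6 with library totals alone. The shares over all tested genes were 29.2% higher and 31.8% lower in knockout, and 28.6% and 27.9% in wild type.

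Other genes of fungal and glycan recognition outside the C-type lectin family moved with IFN-γ mostly upward: of 14 tested (15 in the table), 11 rose and 2 fell in knockout, and 11 rose and 3 fell in wild type. The list holds lectins of other kinds, the galectins LGALS1, LGALS3 and LGALS9 and the Siglec CD33. With library totals alone 5 fell in knockout. The scavenger receptor MSR1 was at 61.8 CPM in knockout and 138 CPM in wild type with IFN-γ, and at 6.69 and 42.7 CPM with PMA alone. In the genotype comparisons 4 were higher and 6 lower with IFN-γ, and 5 higher and 7 lower with PMA alone. Over all tested genes these comparisons gave 22.9% higher and 24.3% lower with IFN-γ, and 25.4% and 24.8% with PMA alone. The IFN-γ responses gave 29.2% higher and 31.8% lower in knockout, and 28.6% and 27.9% in wild type. SCARF1, a scavenger receptor that binds fungal glucans, was higher in the knockout with IFN-γ, at 17.3 CPM against 9.86 CPM in wild type (0.81 ± 0.11, edgeR adjusted p = 2.0e-07), on the same side as CLEC7A. In the difference of responses, lists gave 6 higher and 5 lower of 26 adaptors, kinases and phosphatases, 6 and 4 of 20 factors and targets, 0 and 1 of 10 genes of the chromosome 12 arm, 3 and 4 of 20 lectins elsewhere, and 4 and 3 of 14 fungal and glycan receptors. Over all tested genes that difference was called higher in 7.61% and lower in 7.86%. The 3 lectins called higher there became 1 without knockout IFN-γ replicate 1 or 3, knockout PMA replicate 1, wild-type IFN-γ replicate 2 or wild-type PMA replicate 1, and the 3 receptors called lower became 1 without knockout IFN-γ replicate 2.

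Across the 12 libraries, which share treatment and genotype groups, log2 CPM of CLEC2B and CLEC10A correlated at r = 0.995 although the genes lie on chromosomes 12 and 17. CD209 followed CLEC10A at r = 0.98, and CLEC12A ran against CLEC10A at r = −0.96. CLEC2D was nearly unrelated to CLEC10A (r = −0.19). Among all genes at a mean of 5 CPM or more, the 3 most like CLEC7A were CASP1, TRIM25 and TLR4 (r = 1.00 for each, to 2 decimals), those most like CD209 were TRIB3, C1QC and SCIMP (0.99 to 1.00), and those most like CLEC10A were B4GALT5, CD47 and CD40 (1.00 for each, to 2 decimals). CLEC2B was most like GCA, CLEC10A and LY75, CLEC12A most like STOX2, DHFRP1 and GPATCH2L (0.98 to 0.99), and CLEC5A most like HLA-DPB1, SLFN12 and SPTLC2 (0.97). The closest to CLEC2D were TYW3, TOP2B and PRKAG1 (0.95 to 0.96), to CLEC4A CLK4, MZF1 and ENSG00000264112 (0.92 to 0.94), and to CLEC4E MFAP1, CMC2 and ADPRM (0.90 to 0.93). These values are descriptions of 12 points that fall into 4 groups.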

How the data were processed

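Per the labels, a kit that marks strand and selects poly(A) RNA made the 12 THP-1 libraries. The authors deposited raw read counts for each gene, made with featureCounts 2.0.3 on hg38 from exon reads of paired libraries, with primary alignments only and chimeric pairs left out, per the file headers. No strand option was given there, so strand could not separate overlapping or antisense genes. Both mates of a pair were counted, per the file headers, and 70.4% to 73.3% of counts between 1 and 19 were even, so counting noise is larger than independent reads would give. The submitters' processing notes also name STAR 2.7.10b, BWA and fastp 0.23.2. The sources used here do not give the aligner of the counted alignments or the annotation release.

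Gene symbols came from a reference table that held 56948 of the 58051 identifiers. Genes were filtered by filterByExpr (minimum count 10) and libraries scaled by TMM. Groups were compared in 1 fit of all libraries (edgeR 4.0.16, quasi-likelihood, two-sided, group as the only term), with Benjamini-Hochberg adjustment over 17119 genes. There were 5 comparisons: the genotypes with IFN-γ, the genotypes with PMA alone, the IFN-γ response in knockout, that in wild type, and the difference between these responses. The fit was also run on simulated independent counts with few changed genes in a single group. The deposited counts hold both mates of a pair and far more called genes, so that run cannot vouch for these results. Correlations used log2 CPM. The members and the gene lists were chosen with earlier results of these data known. The genes named are all members, the lectin-like neighbours, the adaptor and kinase list, up to 3 called genes in each direction of every other list by size of change (not all are printed, and a few items of these lists and searches are not reported here), and the 3 genes most like each member; CLEC2D and CLEC4E promoters are named without their sequence.

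Alternatives were RLE, upper-quartile and no scaling beyond library totals, no filter, at least 5 CPM in 3 libraries, DESeq2 1.42.0, limma-voom (limma 3.58.1), the replicate number as a block, a log2 fold change of at least 1, the compared libraries only, and each library left out in turn. R 4.3.3 and Python 3.11.15 were used.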

Additional observations from a re-analysis of the deposited data

Results flagged for a closer look

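CLEC7A and CD209 were flagged because their IFN-γ responses differed between the genotypes by the test of the difference itself. For CLEC7A the knockout response minus the wild-type response was −0.34 on the log2 scale (SE 0.07, edgeR adjusted p = 5.3e-04), with an adjusted p of 6.4e-05 to 0.0038 over 21 alternatives. For CD209 the difference was −0.52 (SE 0.09, edgeR adjusted p = 5.4e-05), with an adjusted p of 1.2e-07 to 6.8e-04 over 21 alternatives. Both differences are under 1 on the log2 scale.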

How the results depend on the processing

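Over the 9 tested lectins and 5 comparisons, 45 results were checked in 22 settings, and 903 of 964 values kept their direction and their side of the threshold. For 21 results all did. Values past the threshold were lost in 38 cases and gained in 15. Part of the 38 were lost to the cutoff of a log2 fold change of at least 1. That setting reuses the main fit and drops smaller changes by construction. Directions reversed in 8 cases, all among results that were not called. For knockout against wild type with PMA alone these were CLEC4A (−0.015 without knockout PMA replicate 2, in a range of −0.015 to 0.15 over libraries left out) and CLEC4E (0.12 without knockout PMA replicate 3, 0.53 without wild-type PMA replicate 3, in a range of −0.94 to 0.53). For the difference of responses they were CLEC4E (0.34 without knockout PMA replicate 1, 0.20 without wild-type PMA replicate 2, in a range of −1.13 to 0.34) and CLEC5A (0.10 without knockout IFN-γ replicate 2 or wild-type PMA replicate 3, 0.018 without knockout PMA replicate 3, in a range of −0.43 to 0.10). The cause was not tested.

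A log2 fold change of at least 1 left, by construction, 1598, 1562, 3327, 2776 and 458 genes in the 5 comparisons (knockout against wild type with IFN-γ and with PMA alone, the response in knockout and in wild type, and their difference). It left 0 chromosome 12 lectins in both genotype comparisons and in the difference, and, of the lectins elsewhere, 1 in the genotype comparison with IFN-γ and 0 in the difference. With a filter of 5 CPM, 1 lectin elsewhere was called with PMA alone, since fewer were tested. Chromosome 12 lectins called in the knockout response numbered 3 to 6 over libraries left out. In the difference 2 were called, against 1, with library totals alone, no filter, 5 CPM or DESeq2, and 1 to 2 over libraries left out.

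Replicate numbers did not pair the libraries: correlations of same-numbered deviations ran over −0.16 to 0.26, and 2 of 18 exceeded 0.1. With the replicate block 7983 genes were called in the genotype comparison with IFN-γ, and CLEC4A there lost its call (−0.51, adjusted p 0.05005). The block changed no other call of the 9 lectins, and left 1 of the 2 further chromosome 12 lectin-like genes called lower in that comparison. CLEC4D and CLEC4E, with 0 to 24 counts per library, are limited by depth.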
